A study of Mus musculus with 4 samples.

Results

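The 6 genes described here encode the carriers that move glucose into activated T cells and lactate out of them: Slc2a1, Slc2a3 and Slc2a6 of the facilitative glucose carriers, Slc16a1 and Slc16a3 of the monocarboxylate carriers, and Bsg, which encodes basigin, their chaperone. They were taken by gene name from a table of 53465 genes, each name stood on 1 row, and all 6 had enough counts to be tested. The material was CD8+ T cells of the mouse spleen, which had spent 24 h with anti-CD3/CD28 beads, whose antibodies engage the T cell receptor and its costimulator CD28. RNA sequencing gave 4 libraries, 2 labelled PP2Cm KO (PP2Cm-/-) and 2 labelled WT, all stimulated alike. PP2Cm, encoded by Ppm1k, is the mitochondrial phosphatase that switches on the breakdown of branched-chain amino acids. The sources used here do not give the mouse strain or age, the design of the PP2Cm allele, or whether each library came from 1 animal or a pool. P values measure the spread between libraries that the titles call biological replicates.

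The genotype labels conflict. Title and genotype field name 1 genotype for each library, and its description code, which also heads its column in the table, begins with the letters of the other. Ppm1k did not settle the matter in favour of the titles. It had 157 and 206 counts in the libraries labelled KO, against 102 and 94 counts in those labelled WT. Its level was 1.96-fold higher in labelled KO, a log2 fold change of 0.97 (SE 0.23, 95% limits 0.41 and 1.53). For this single gene the edgeR p was 0.00451 unadjusted and 0.186 adjusted over all genes tested. Groups follow the titles, the libraries are called labelled KO and labelled WT, and every sign would turn if the column codes were right.

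Resting T cells take up little glucose. On activation the carriers GLUT1 (Slc2a1) and GLUT3 (Slc2a3) rise at the cell surface, glucose is turned largely to lactate, and the lactate leaves with a proton through MCT1 (Slc16a1) and MCT4 (Slc16a3). MCT1 has the higher affinity and also carries lactate inward, while MCT4 is known as the exporter of highly glycolytic cells and as a target of hypoxia-inducible factor (HIF). Basigin, also called CD147, is a single-pass membrane protein that MCT1 and MCT4 need to reach the surface.

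Library totals ran from 13394074 to 14199020 counts for labelled KO and from 12967251 to 17316284 counts for labelled WT. The CD8 T cell markers summed to 2036 and 1956 CPM in the libraries labelled KO and 2284 and 2039 CPM in those labelled WT. Here CPM is counts per 1000000 counts of a library, scaled by the trimmed mean of M values (TMM). There were 7 fixed marker lists for other cell types, of which 3 had sums that overlapped between the labels. The sums for B cells, for erythroid cells and platelets and for stroma and endothelium lay lower in both libraries labelled KO. The sum for CD4 T cells lay higher. The stroma and endothelium sum was nearly all Pecam1, at 18.0 and 18.6 CPM in labelled KO and 37.0 and 30.6 CPM in labelled WT. Of its other markers, Col3a1, Cdh5 and Kdr had 0 counts and Col1a1 and Col1a2 stayed under 1 CPM. Transcripts of the mitochondrial genome summed lower too, to 13500 and 14864 CPM in labelled KO against 18470 and 15414 CPM in labelled WT. Their part in the results was not tested.

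The promoters of the lactate carrier genes and of Slc2a1 are shown, a choice made after Slc16a3, the 1 carrier gene called, had passed the test. RefSeq promoters (GRCm38.p6, 250 bases before to 50 after the start) were matched for 4 of the 6 genes, all but Slc2a3 and Bsg. The search used ACGTG and GCGTG, the forms of the core that HIF binds, and the E-box CACGTG, which MYC with MAX and the glucose sensors with MLX bind, on both strands. CACGTG contains ACGTG on both strands, so the 2 searches overlap there. Capitals mark ACGTG or its reverse complement, and lines run 5′ to 3′ on the gene's strand, which is plus for these 3 genes.
Slc16a3, chr11:120948817-120949116: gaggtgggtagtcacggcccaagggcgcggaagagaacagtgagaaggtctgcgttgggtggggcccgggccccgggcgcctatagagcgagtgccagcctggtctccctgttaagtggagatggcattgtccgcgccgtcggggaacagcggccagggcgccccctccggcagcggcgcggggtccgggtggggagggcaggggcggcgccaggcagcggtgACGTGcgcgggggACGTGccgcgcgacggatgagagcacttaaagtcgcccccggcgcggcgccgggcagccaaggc
Slc16a1, chr3:104638414-104638713: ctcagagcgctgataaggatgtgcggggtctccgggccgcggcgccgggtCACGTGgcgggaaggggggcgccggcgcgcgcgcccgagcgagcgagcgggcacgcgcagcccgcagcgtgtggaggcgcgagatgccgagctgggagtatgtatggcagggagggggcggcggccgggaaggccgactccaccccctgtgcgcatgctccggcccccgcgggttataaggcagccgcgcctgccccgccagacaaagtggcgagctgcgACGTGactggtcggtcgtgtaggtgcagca
Slc2a1, chr4:119108495-119108794: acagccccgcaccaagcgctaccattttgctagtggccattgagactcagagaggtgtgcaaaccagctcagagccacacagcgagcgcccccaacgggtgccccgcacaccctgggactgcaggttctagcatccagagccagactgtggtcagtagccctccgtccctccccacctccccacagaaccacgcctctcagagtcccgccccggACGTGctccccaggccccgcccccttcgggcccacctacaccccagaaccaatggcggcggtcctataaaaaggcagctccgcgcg
The Slc16a3 window held ACGTG at 2 separate places, with first bases at positions -27 and -14 from the start (the base before the start is -1). The Slc2a1 window held it once, at -36. Slc16a1 held it at 2 places, 1 of them the E-box at -200 and the other at 21, past the start. Of 32851 RefSeq promoter windows of the same length, 19.6% held ACGTG, 2.69% held it at 2 or more separate places, 32.4% held GCGTG and 7.15% held the E-box. These shares cover windows of any G and C content. That content was 73.3% for Slc16a3, 73.7% for Slc16a1, 65.3% for Slc2a1 and 64.7% for Slc2a6. The form GCGTG was absent from the Slc16a3 window, stood at 1 place in that of Slc2a1, at 2 in that of Slc16a1 and at 4 in that of Slc2a6, which held no ACGTG. The Slc16a3 start used by RefSeq lies 587 bases inside the annotated gene. These matches are letters in a window, not measured binding, and their part in the levels of the genes was not tested.

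Per unit length, the order of the levels was Bsg, Slc16a1, Slc2a1, Slc16a3, Slc2a3 and Slc2a6. Over the 4 libraries the mean deposited FPKM, counts per kilobase of gene and per 1000000 counts, was 73.5 for Bsg, 61.0 for Slc16a1, 28.9 for Slc2a1, 9.28 for Slc16a3, 7.69 for Slc2a3 and 3.62 for Slc2a6. Bsg ranked 816th and Slc2a6 7895th among the 13528 genes tested. The gene lengths behind the FPKM are longer than the exon total of the GENCODE M21 annotation for all of them but Slc16a1, for example 8750 against 5318 bases for Slc16a3. The same order held for the means per kilobase of that exon total. Slc16a3 lay above Slc2a3 in both libraries labelled WT. In labelled KO their order depended on the library and the gene lengths used. Slc2a3 had 6.0 ± 0.16 FPKM and Slc16a3 5.52 ± 0.604 FPKM in the libraries labelled KO, which do not differ beyond their spread, whereas Slc2a3 had 9.37 ± 2.94 FPKM and Slc16a3 13.0 ± 1.27 FPKM in those labelled WT (SD, n = 2 each). With the GENCODE exon lengths, Slc2a3 and Slc16a3 had 8.88 and 8.38 counts per kilobase and 1000000 counts in labelled KO replicate 1 and 9.23 and 9.79 in labelled KO replicate 2, so the pair had no set order there.

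Across the labels, the lactate exporter gene Slc16a3 fell in the libraries labelled KO and the other 5 genes did not pass the test. Testing all 13528 genes with edgeR's quasi-likelihood test and Benjamini-Hochberg adjustment called 1 of the 6 genes, lower, where 0.103% of all genes were called lower and 0.207% in either direction. At an unadjusted p under 0.05, 2 of them (Slc16a3 and Slc2a3) were lower and 0 higher, where 7.23% of all genes were lower and 12.9% lay under it in either direction. Both libraries labelled KO lay below both labelled WT for Slc2a1, Slc2a3 and Slc16a3, where 23.3% of genes did so. They lay above for Slc16a1, where 21.5% did, and groups did not overlap in either direction for 44.9% of genes. The log2 fold change was negative for 4 of the 6, where 51.9% of all genes had a negative one. Its median was -0.14 over the 6, beside -0.01 for all genes tested. In these bulk libraries a change in the share of cells that express a gene and a change in RNA per cell cannot be told apart.

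**Figure D1:**
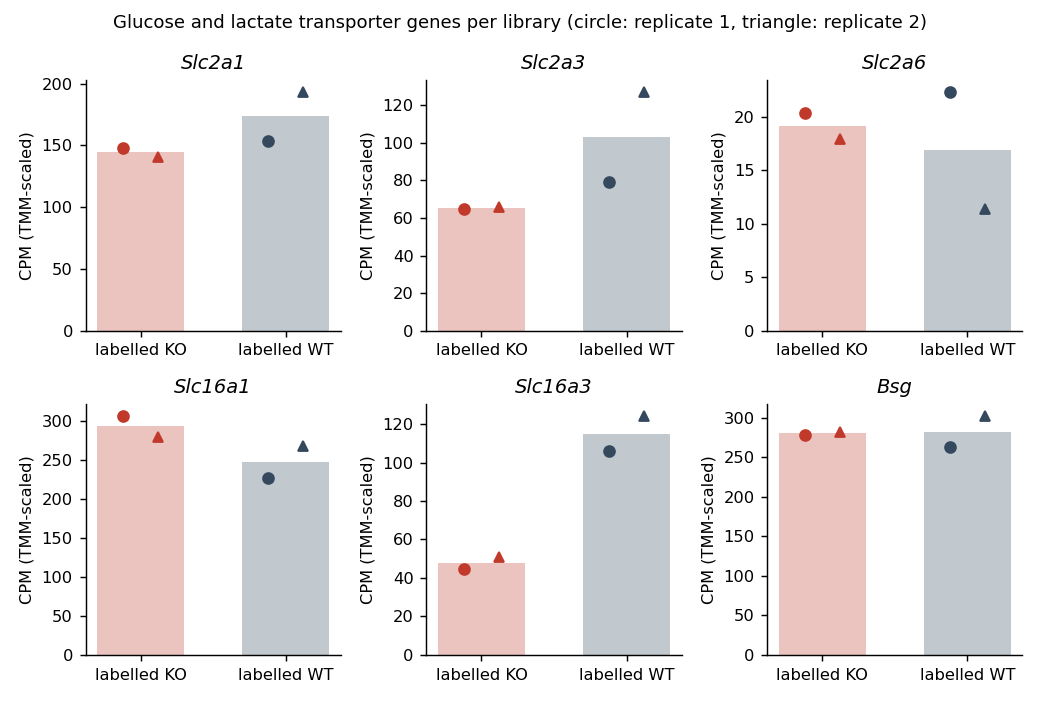
CPM (TMM-scaled) of the 6 transporter genes, with bars for the mean of 2 libraries and points for each library, labelled KO in red on the left and labelled WT in grey on the right. Slc16a3 stands at 44.8 and 51.1 CPM in labelled KO, below 106 and 124 CPM in labelled WT, while the Slc2a6 and Bsg points of the labels overlap.

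Slc16a3, which encodes MCT4, had 597 and 739 counts in the libraries labelled KO, against 1378 and 2112 counts in those labelled WT. Scaled, these were 44.8 and 51.1 CPM in labelled KO and 106 and 124 CPM in labelled WT. Both libraries labelled KO lay below both labelled WT, and replicates differed by 1.14-fold within labelled KO and 1.17-fold within labelled WT. The mean was 48.0 ± 4.43 CPM in labelled KO and 115 ± 13.0 CPM in labelled WT (SD, n = 2 each), 2.40-fold lower, with a log2 fold change of -1.26 (SE 0.14, 95% limits -1.59 and -0.93). By edgeR the adjusted p was 0.0359, and the gene ranked 17th of all genes tested by p. The call was lost without labelled KO replicate 1 (adjusted p = 0.0561), without labelled KO replicate 2 (adjusted p = 0.14) and in limma fits on the FPKM, where it was 0.0911 to 0.23; over the 14 alternatives that gave its fold change it ran from 5.59e-10 to 0.23. It was also lost with a block that crosses the replicate numbers, which was chosen after seeing the data. In those 14 alternatives the size of the change stayed between -1.37 and -1.11 on the log2 scale. The gene lies on chromosome 11 from 120948480 to 120960868 (GRCm38, plus strand, ENSMUSG00000025161), and no other annotated gene overlaps it.

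MCT4 is also strongly made by macrophages. The 10 myeloid markers summed to 6.61 and 4.91 CPM in labelled KO and 4.6 and 9.70 CPM in labelled WT, which overlap, and 0 of the 10 lay lower in both libraries labelled KO. S100a9 and Ly6g had 0 counts in all 4 libraries. The 10 B cell markers summed to 304 and 269 CPM in labelled KO and 426 and 368 CPM in labelled WT, most of it Ighm, while Cd79a reached at most 1.12 CPM. Of these 10, 2 lay lower in both libraries labelled KO, where 23.3% of all genes tested did so. Whether these marker values bear on Slc16a3 was not tested.

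Slc16a1, which encodes MCT1, lay the other way. It had 4078 and 4048 counts in the libraries labelled KO, against 2953 and 4550 counts in those labelled WT. Scaled, they were 306 and 280 CPM in labelled KO and 227 and 267 CPM in labelled WT, so the labels did not overlap but the gap between the nearest libraries was small. Its log2 fold change was 0.25 (SE 0.12, 95% limits -0.05 and 0.54, edgeR adjusted p = 0.465), which did not pass. Leaving out labelled WT replicate 1 gave 0.14, and leaving out the other library labelled WT gave 0.37. On the linear scale the limits were 0.967 and 1.45 times the labelled WT level. Slc16a1 lies on chromosome 3 from 104638668 to 104658462 (plus strand, ENSMUSG00000032902).

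In the ratio of the lactate carrier genes to each other, the libraries of the labels lay apart. Per unit length, Slc16a1 stood 13.5 and 10.8 times above Slc16a3 in the libraries labelled KO, against 4.24 and 4.26 times in those labelled WT. With the GENCODE exon lengths these ratios were 8.21 and 6.58 in labelled KO and 2.57 and 2.59 in labelled WT. Slc16a3 made up 5.71% and 6.86% of the summed FPKM of the 14 Slc16 genes in labelled KO, and 16% and 16.4% in labelled WT. The Slc16 sum itself was 89.2 and 86.7 FPKM in labelled KO and 75.9 and 85.0 FPKM in labelled WT. No test was run on these shares.

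**Figure D2:**
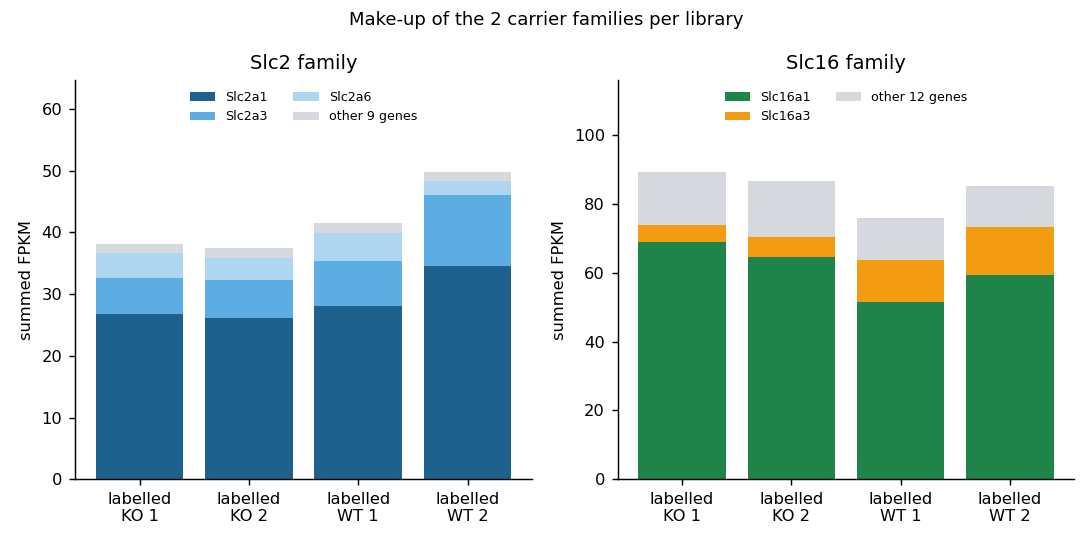
Summed deposited FPKM of the Slc2 genes (left) and Slc16 genes (right) in each library, labelled KO first, with colours for the transporter genes and light grey for the other family genes. The Slc16a3 segment is 5.71% and 6.86% of its bar in labelled KO and 16% and 16.4% in labelled WT, and Slc2a1 is the largest part of every Slc2 bar.

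Bsg, the chaperone of both lactate carriers, showed no difference beyond the spread between replicates. It had 278 and 283 CPM in the libraries labelled KO, between the 263 and 302 CPM of those labelled WT. Its log2 fold change was -0.01 (SE 0.11, edgeR adjusted p = 0.979), with 95% limits of -0.28 and 0.26, and its sign turned in 6 of 14 alternatives. Bsg stood at 1.05 and 1.17 times the FPKM of Slc16a1 in labelled KO and at 1.34 and 1.31 times in labelled WT. It lies on chromosome 10 from 79704491 to 79711969 (plus strand, ENSMUSG00000023175). Embigin (Emb), the relative of basigin that can also escort MCT1, stood at 133 and 128 CPM in labelled KO, against 153 and 205 CPM in labelled WT, with a log2 fold change of -0.46 (SE 0.15, edgeR adjusted p = 0.286). The third relative, neuroplastin (Nptn), had 71.9 and 114 CPM in labelled KO and 120 and 57.3 CPM in labelled WT, a spread between replicates wider than any difference between labels.

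Among the glucose carriers, none passed the test. Slc2a1, which encodes GLUT1, had 1970 and 2036 counts in the libraries labelled KO, against 2000 and 3293 counts in those labelled WT, or 148 and 141 CPM in labelled KO and 153 and 194 CPM in labelled WT. Labelled KO replicate 1 and labelled WT replicate 1 were close, and labelled WT replicate 2 was the high library. The log2 fold change was -0.27 (SE 0.14, 95% limits -0.59 and 0.06, edgeR adjusted p = 0.472), and it was -0.09 without labelled WT replicate 2. Slc2a1 lies on chromosome 4 from 119108711 to 119137983 (plus strand, ENSMUSG00000028645). An antisense gene, Gm12868, shares 105 exon bases with it and had 0 counts in all libraries. The 8 erythroid and platelet markers summed to 1.65 and 2.28 CPM in labelled KO and 3.30 and 6.17 CPM in labelled WT. Of the 8, 5 lay lower in both libraries labelled KO, as did 23.3% of all genes tested, and Alas2 had 0 counts throughout. Counts were few: Hba-a1, for example, had 6 and 9 in labelled KO and 10 and 27 in labelled WT. The part of these markers in the Slc2a1 values was not tested.

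Slc2a3, which encodes the high-affinity carrier GLUT3, had 862 and 949 counts in the libraries labelled KO, against 1033 and 2166 counts in those labelled WT. Scaled, it had 64.7 and 65.6 CPM in labelled KO and 79.3 and 127 CPM in labelled WT. The libraries labelled KO were nearly equal and low, and those labelled WT differed from each other by 1.61-fold. The log2 fold change was -0.67 (SE 0.22, 95% limits -1.18 and -0.16), and the unadjusted p of 0.0178 did not survive adjustment over all genes (edgeR adjusted p = 0.279). Its size rests on labelled WT replicate 2: it was -0.28 without that library and -0.96, with an adjusted p of 0.00742, without labelled WT replicate 1. Slc2a3 spans 73832 bases of chromosome 6, from 122727809 to 122801640 (minus strand, ENSMUSG00000003153). The processed pseudogene Gm4482 lies in an intron on the same strand, shares no exon base with it, and had 116 and 121 counts in labelled KO and 108 and 102 counts in labelled WT.

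Slc2a6, which encodes GLUT6, a carrier found in lysosomes of macrophages, was the lowest of the genes and the least steady. It had 271 and 259 counts in the libraries labelled KO, against 291 and 194 counts in those labelled WT, or 20.3 and 17.9 CPM in labelled KO and 22.3 and 11.4 CPM in labelled WT. Labelled WT replicate 1 was the highest library and labelled WT replicate 2 the lowest. The 2 libraries labelled WT differed by 1.96-fold, more than counting error allows, since the exact Poisson 95% intervals were 4.0 to 5.05 FPKM and 1.94 to 2.59 FPKM. The log2 fold change of 0.19 (SE 0.30, 95% limits -0.53 and 0.91, edgeR adjusted p = 0.851) turned to -0.22 without labelled WT replicate 2. Slc2a6 lies on chromosome 2 from 27021363 to 27027998 (minus strand, ENSMUSG00000036067).

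**Figure D3:**
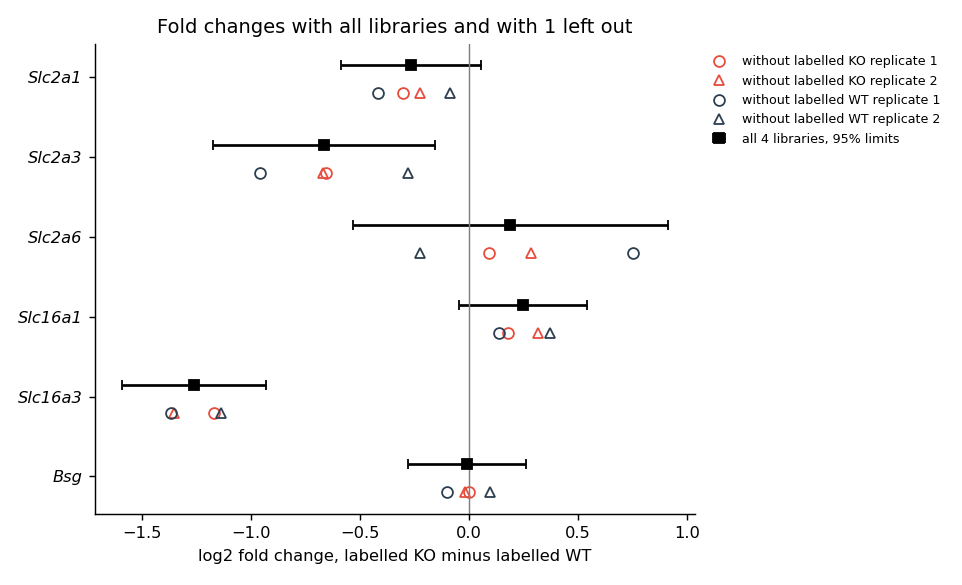
Log2 fold change of each transporter gene, labelled KO minus labelled WT, with all libraries (squares, bars for 95% limits) and with 1 library left out (open symbols). For Slc16a3 every value lies between -1.37 and -1.14, Slc2a3 moves between -0.96 and -0.28, and Slc2a6 and Bsg cross 0.

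Labelled WT replicate 2 therefore held the most Slc2a1 and Slc2a3 and the least Slc2a6 of the 4 libraries. The summed FPKM of the 12 Slc2 genes was 38.2 and 37.4 in the libraries labelled KO, against 41.6 and 49.8 in those labelled WT. Slc2a1 made up 70.1% and 69.8% of it in labelled KO and 67.5% and 69.5% in labelled WT. Slc2a3 took 15.4% and 16.4% in labelled KO and 17.5% and 23.0% in labelled WT, and Slc2a6 10.6% and 9.78% in labelled KO and 10.8% and 4.52% in labelled WT.

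Of the other 9 Slc2 genes, 3 had 0 counts in all libraries and 2 were tested: Slc2a8, an intracellular carrier, with a log2 fold change of 0.00 (edgeR adjusted p = 0.996), and Slc2a9, the urate carrier, with -0.40 (edgeR adjusted p = 0.509). Of the other 12 Slc16 genes, 4 had 0 counts in all libraries, 5 were tested and none was called. Slc16a10, a carrier of aromatic amino acids, had 38.7 and 40.9 CPM in labelled KO, against 25.9 and 21.9 CPM in labelled WT, a log2 fold change of 0.74 (SE 0.16, edgeR adjusted p = 0.148; DESeq2 adjusted p = 0.0169). Slc16a6 had 45.1 and 48.9 CPM in labelled KO and 34.8 and 36.0 CPM in labelled WT, with a log2 fold change of 0.41 (SE 0.14, edgeR adjusted p = 0.305). For both, the libraries labelled KO lay above those labelled WT. Slc16a5 had a log2 fold change of -0.31 (edgeR adjusted p = 0.805), at under 5 CPM. None of the 4 sodium-coupled carriers of glucose and monocarboxylates had enough counts for a test.

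Partners and regulators of the carriers came from further fixed lists. With the family genes and basigin's relatives they hold 60 genes, of which 37 were tested; edgeR called none of them (0.207% of all genes). At an unadjusted p under 0.05 there were 12 of them, 6 higher and 6 lower, or 32.4% where all genes had 12.9%. Because the lists were chosen with earlier results of these data known, the larger share is a description and not a test. DESeq2 called 4, with Txnip lower and Slc16a10, Slc4a7 and Mlx higher, where it called 2.05% of all genes. The median log2 fold change of the 37 genes was -0.02.

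Txnip, an arrestin-like protein that pulls GLUT1 from the cell surface, had 60.1 and 59.9 CPM in the libraries labelled KO, against 111 and 100 CPM in those labelled WT. Its libraries did not overlap, and replicates of each label were close. The log2 fold change was -0.82 (SE 0.12), which missed the threshold by edgeR (adjusted p = 0.0623) and passed it by DESeq2 (adjusted p = 6.47e-05), and it stayed between -0.89 and -0.73 as single libraries were left out. Its relative Arrdc4, which also acts on GLUT1, had 2.85 and 2.63 CPM in labelled KO and 4.91 and 6.94 CPM in labelled WT (log2 fold change -1.12, SE 0.29, edgeR adjusted p = 0.201). Arrdc3, of the same family, had a log2 fold change of -0.74 (SE 0.27, edgeR adjusted p = 0.317) and Tbc1d4, a Rab GTPase-activating protein that holds back GLUT4 in muscle and fat, -0.80 (SE 0.28, edgeR adjusted p = 0.305). Leaving out each library moved Arrdc3 between -1.15 and -0.42, Tbc1d4 between -1.13 and -0.37 and Arrdc4 between -1.33 and -0.84. Of the 11 trafficking genes, all were tested, and log2 fold changes were negative for 7 and positive for 4 (median -0.11). Vps35 of the retromer, which returns GLUT1 to the surface, the endosomal GTPase gene Rab7, Tbc1d1 and the GLUT1-binding adaptor gene Gipc1 lay between -0.11 and 0.15.

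Of the transcription factors known to act on these genes, 6 were tested, and log2 fold changes were positive for 4 and negative for 2. Mlx, the partner of the glucose-sensing factors that drive Txnip and Arrdc4, had 50.4 and 44.8 CPM in labelled KO, against 25.2 and 28.4 CPM in labelled WT. This was a log2 fold change of 0.83 (SE 0.16, edgeR adjusted p = 0.114; DESeq2 adjusted p = 0.00217). Mlxip, 1 of those sensors, had 0.18 (edgeR adjusted p = 0.544). Myc, which raises Slc2a1 and Slc16a1 in growing cells, had 283 and 285 CPM in labelled KO and 231 and 202 CPM in labelled WT, with a log2 fold change of 0.39 (SE 0.11, edgeR adjusted p = 0.243). Hif1a, whose protein level is set mainly by its breakdown, had 0.10 (SE 0.11, edgeR adjusted p = 0.756), and Epas1, which encodes HIF-2 alpha, -0.40 (edgeR adjusted p = 0.603).

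No enzyme on either side of the carriers passed the test. Hk2, the hexokinase that traps incoming glucose, had 260 and 263 CPM in labelled KO, against 213 and 241 CPM in labelled WT (log2 fold change 0.20, SE 0.11, edgeR adjusted p = 0.5). Hk1 had a log2 fold change of -0.17, and Ldha, the lactate dehydrogenase subunit that feeds MCT4, had -0.21 (SE 0.16, edgeR adjusted p = 0.632) at 2037 and 1868 CPM in labelled KO and 2007 and 2501 CPM in labelled WT. Mpc1, a subunit of the mitochondrial pyruvate carrier that takes pyruvate away from lactate, had 7.43 and 6.22 CPM in labelled KO and 10.9 and 8.88 CPM in labelled WT (log2 fold change -0.53, SE 0.22, edgeR adjusted p = 0.373). Of the proton and bicarbonate handlers that offset the acid leaving with lactate, 5 of 7 were tested. Slc4a7, a sodium bicarbonate importer, had 68.0 and 61.8 CPM in labelled KO and 39.7 and 42.3 CPM in labelled WT (log2 fold change 0.66, SE 0.14, edgeR adjusted p = 0.134; DESeq2 adjusted p = 0.00824). The extracellular carbonic anhydrase gene Car12 had a log2 fold change of 0.45 (edgeR adjusted p = 0.267), the anion exchanger gene Slc4a2 0.14 and the cytosolic Car2 -0.88 (edgeR adjusted p = 0.402), the last at 2.85 and 2.21 CPM in labelled KO and 3.15 and 6.11 CPM in labelled WT.

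**Figure D4:**
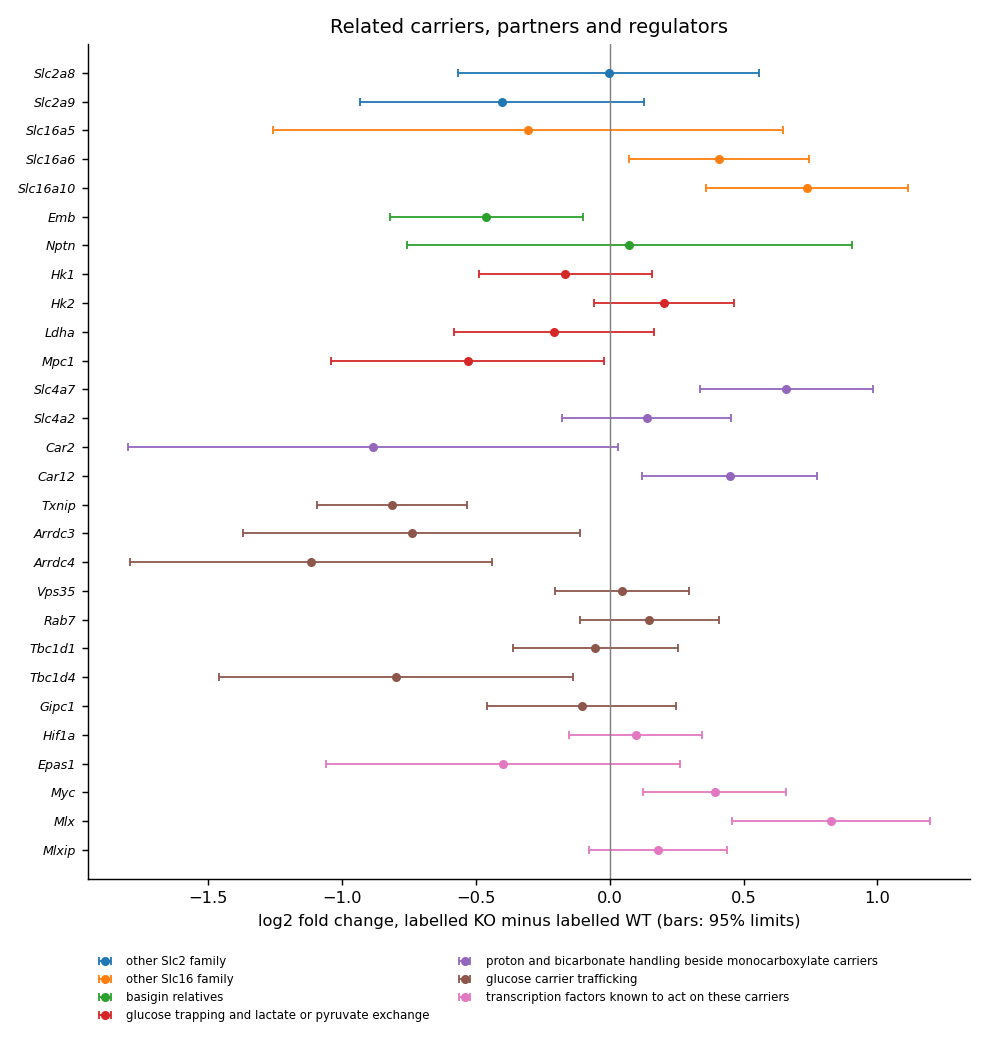
Log2 fold change, labelled KO minus labelled WT, with 95% limits, of the related carriers, partners and regulators, coloured by list. Txnip (-0.82) and Arrdc4 (-1.12) lie left of 0 and Mlx (0.83), Slc16a10 (0.74) and Slc4a7 (0.66) right of it, and none passed edgeR's test over all genes.

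Genes with profiles like each carrier were looked up as the root mean square difference of log2 CPM, centred per gene, over the 4 libraries, among 8393 protein-coding genes with a mean of at least 10 CPM. The nearest to Slc16a3 were Tmem9b (0.0965), Asns (0.118), Gm14085 (0.124), Mxd3 (0.138) and Cxcr5 (0.142). Asns, which encodes asparagine synthetase, had 60.7 and 55.0 CPM in labelled KO, against 125 and 151 CPM in labelled WT. Among the nearest to Slc2a1 were Bspry and Traf5, and Slc2a3 lay nearest to Ly6c1, Raver2 and Plac8. Slc2a6 lay nearest to Armcx3, Ankrd13a and Sqle, each of which shared its low value in labelled WT replicate 2. Slc16a1 lay nearest to Rrp12, Slc7a6os and Ddx56 and Bsg to Eif5a, Coq7 and Gnpat, all at 0.0116 or less. With only 4 libraries such nearness describes these libraries alone.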

How the data were processed

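Polyadenylated RNA of bead-stimulated CD8+ T cells was sequenced after stranded library preparation (KAPA Stranded RNA-Seq), per the labels' protocols. Per the file headers, the authors deposited whole-number counts per gene with no normalization, and FPKM, the count per kilobase of gene and per 1000000 counts. The gene length implied by the pair of values was the same for all libraries to within 0.0478%. The submitters' processing notes name kallisto and GRCm38 with no role, and the sources used here do not give the counter, the strand setting or the filters. Each column was joined to its sample through the description code, and 8 other columns of values were not used here. Overlaps and exon lengths came from GENCODE M21, whose start and end matched the table for all 6 genes.

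Genes were filtered with filterByExpr, leaving 13528. TMM scaling and the two-sided quasi-likelihood test came from edgeR 4.0.16 under R 4.3.3. Fold changes are labelled KO over labelled WT, and the threshold was a Benjamini-Hochberg adjusted p of 0.05 over all genes tested. The biological coefficient of variation was 15.9%. DESeq2 1.42.0 and limma 3.58.1, the latter on log2(FPKM + 1) and log2(FPKM + 0.1), other scalings, filters, a replicate block and leaving out each library were alternatives. The fit was tested on simulated counts. Replicates differed beyond counting noise (chi-square per degree of freedom 13.9 in labelled KO and 19.2 in labelled WT). Poisson intervals, and the CPM limits given for genes without counts, cover counting error only. The limits of fold changes came from the edgeR fit and include the spread between replicates. The transporter genes and lists were chosen with earlier results of these data known. Besides the transporter genes, the text names list genes that passed the test, the 4 with the lowest p in each list and those with at least 10 FPKM, and the 3 nearest profiles (5 for Slc16a3). Where a gene name stood on several rows, the one with most counts was used. A few genes that this rule would name are not reported here.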

Additional observations from a re-analysis of the deposited data

How the results depend on the processing

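Of 84 fold changes (6 transporter genes under 14 alternatives), 71 kept their direction and their side of the threshold, and 7 changed sign. The count of genes called, 28 by the edgeR fit, was 277 by DESeq2, 146 with no filter on low counts, 17 with a mean of at least 10 CPM, and 5, 4 and 2 by limma on log2(FPKM + 1), on log2(FPKM + 0.1) and on log2(FPKM + 1) without a filter. Leaving out each library in turn gave 8 to 304. The number of transporter genes called, 1 by the edgeR fit, was 0 in those 3 limma fits and 0 to 2 on leaving out each library. Slc16a3 had a log2 fold change of -1.11, -1.23 and -1.11 in the limma fits, and -1.37 to -1.14 on leaving out each library, where only 1 label still has a pair to give the spread and the lone library is assumed to vary alike. On the same terms the range was -0.96 to -0.28 for Slc2a3 and -0.22 to 0.75 for Slc2a6, and -0.10 to 0.0941 for Bsg. Bsg had 0.01 with library totals only and in each limma fit (0.0087, 0.0109, 0.0111 and 0.0109). The summed Slc16 level had a log2 difference of 0.13 on FPKM and 0.0227 on CPM. The 2 sums weigh the genes differently. FPKM divides by gene length, 8750 bases for Slc16a3 and 4426 bases for Slc16a1, and CPM does not.

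The replicate block gave 123 calls, kept Slc16a3 (adjusted p = 0.00361) and changed no other transporter call. The numbers are not stated to pair libraries, and the deviations of same-numbered libraries had only a weak, negative correlation across genes (-0.17). With the pairing crossed, which was chosen after seeing the data, a block gave 12 calls, 0 of them transporter genes.

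At these depths a count of 0 allows up to 0.224 and 0.211 CPM in the libraries labelled KO and 0.231 and 0.173 CPM in those labelled WT.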
